A study of Mus musculus with 15 samples.

Results

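Nucleolar ribosome biogenesis and RNA polymerase I (Pol I) genes were followed across mouse erythroid cells carrying 4 mutant forms of the transcription factor GATA1 and the wild-type form. The set held 40 genes listed by symbol, of which 38 were measured by a probe set annotated to that symbol alone, among 19933 genes tested. Where a gene had several such probe sets (Fbl, Wdr12 and Ddx18) the one with the highest mean over the arrays was taken. Noc2l and Npm3 were not analysed here. The cells were G1E, an immature erythroid line that lacks GATA1, and each group was a line expressing GATA1 fused to ER, with the substitution R216Q, R216W, D218G or D218Y or, in WT, with none. ER is a domain of the estrogen receptor that makes GATA1 inducible, and the cells of all 5 lines had received 100 nM estradiol for 24 hours before total RNA was extracted. There were 3 biological replicates of each line, 15 arrays in all. The labels describe 1 line per mutation and give no clone or pool, so the effect of a mutation and of its line cannot be told apart. All p-values rest on the spread between replicate cultures of a line.

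Ribosomes are built in the nucleolus, where Pol I transcribes a long precursor of ribosomal RNA. Small nucleolar ribonucleoproteins (snoRNPs) of the box C/D type methylate that precursor and those of the H/ACA type convert uridines in it to pseudouridine. A large assembly called the small subunit processome cuts out and folds the RNA of the 40S subunit, while a separate series of factors matures the 60S subunit. In red cell development early progenitors grow and make many ribosomes, and this activity declines as they mature. Myc is a known activator of many genes of this pathway.

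Promoter sequences of the genes were searched for short motifs. The RefSeq promoter table (GRCm38.p6; 250 bases before to 50 after a transcription start) held 33 of the 38 genes, with 36 windows. Fbl, Rrs1, Bop1, Rrp12 and Npm1 had no entry. The E-box CACGTG, the sequence that Myc and related factors recognise, reads the same on both strands and was found in 7 of the 36 windows (19.4%), against 7.15% of all 32851 windows in the table and 8.25% of the 19173 windows of genes tested. The GC box GGGCGG, searched on both strands, was in 25 windows (69.4%), against 35.7% of all windows and 49.2% of those of genes tested. The GATA motifs AGATAA and TGATAA, searched on both strands, were in none of the 36 windows. They were in 11.2% and 9.05% of all windows and in 9.25% and 6.72% of those of genes tested. The CCAAT motif was in 36.1% of windows, against 37.4% of all. These matches are letters in a window and not measured binding. The stretches of 100 bases printed here each hold 1 of the 7 E-boxes, in capitals. They are shown because these are the promoters with a match, and they read 5′ to 3′ on the strand of the gene.
Wdr43: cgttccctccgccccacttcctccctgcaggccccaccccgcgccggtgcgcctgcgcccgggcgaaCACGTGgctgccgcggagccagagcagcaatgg
Utp20: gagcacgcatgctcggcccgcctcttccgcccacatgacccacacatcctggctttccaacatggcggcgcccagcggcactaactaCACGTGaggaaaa
Imp4: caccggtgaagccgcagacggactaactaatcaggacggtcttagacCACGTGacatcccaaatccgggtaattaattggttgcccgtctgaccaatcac
Pes1: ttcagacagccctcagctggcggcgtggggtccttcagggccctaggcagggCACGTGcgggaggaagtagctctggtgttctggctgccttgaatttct
Nop2: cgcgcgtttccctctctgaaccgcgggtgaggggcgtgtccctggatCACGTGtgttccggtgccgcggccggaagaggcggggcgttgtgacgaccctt
Nle1: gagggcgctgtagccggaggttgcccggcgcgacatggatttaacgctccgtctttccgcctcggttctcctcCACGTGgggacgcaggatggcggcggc
Mybbp1a: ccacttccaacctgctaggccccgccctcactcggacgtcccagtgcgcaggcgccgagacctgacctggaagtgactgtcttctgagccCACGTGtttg
The stretches lie at chr17:71616165-71616264 (plus strand), chr10:88826765-88826864 (minus), chr1:34439661-34439760 (plus), chr11:3963925-3964024 (plus), chr6:125131776-125131875 (plus), chr11:82908346-82908445 (minus) and chr11:72441277-72441376 (plus). The E-boxes of Imp4 and Nop2 began at positions -121 and -60 from the transcription start. The other 5 began between positions 3 and 41.

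**Figure D1:**
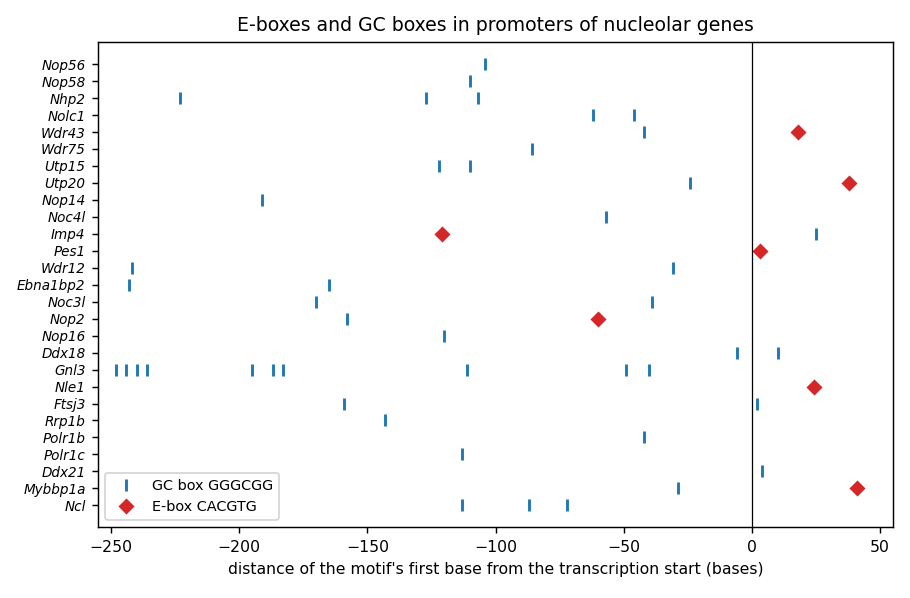
Positions of E-boxes (red diamonds) and GC boxes on either strand (blue bars) in promoter windows of the nucleolar genes that hold at least one of them. The horizontal axis is the distance of the motif's first base from the transcription start in bases; the vertical axis lists the genes, 7 of which have an E-box.

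Of the 33 genes with a promoter window, 26 had no E-box there, and 2 of these are shown over 300 bases. They are Rrp1b, which had the largest rise in D218Y, and Nop56, the only member with a fall past the threshold in the main fit, in R216W. GC boxes are in capitals, read on either strand.
Rrp1b: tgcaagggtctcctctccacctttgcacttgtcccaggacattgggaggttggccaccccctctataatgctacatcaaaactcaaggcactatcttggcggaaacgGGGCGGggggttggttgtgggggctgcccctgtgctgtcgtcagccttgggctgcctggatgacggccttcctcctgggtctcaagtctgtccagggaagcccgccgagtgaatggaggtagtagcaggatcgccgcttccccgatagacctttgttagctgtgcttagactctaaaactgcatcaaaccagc
Nop56: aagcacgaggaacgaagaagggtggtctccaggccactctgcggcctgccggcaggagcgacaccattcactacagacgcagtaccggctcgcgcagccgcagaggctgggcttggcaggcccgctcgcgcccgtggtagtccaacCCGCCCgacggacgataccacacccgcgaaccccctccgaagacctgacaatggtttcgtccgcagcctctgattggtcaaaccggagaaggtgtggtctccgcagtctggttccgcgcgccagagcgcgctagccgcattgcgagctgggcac
They lie at chr17:32035912-32036211 and chr2:130274162-130274461, both on the plus strand, and each holds 1 GC box. In D218Y against WT, the 7 genes with an E-box had a median log2 difference of 1.04 and the 26 without one had 0.83. Their ranges of 0.47 to 1.19 and 0.37 to 2.01 overlapped. The medians with and without an E-box were 0.41 and 0.34 in R216Q, 0.06 and 0.07 in R216W, and 0.42 and 0.35 in D218G. The ranges overlapped in these lines too, and the difference between the groups was not tested.

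The measurements were log2 expression values from Affymetrix arrays, processed by robust multi-array averaging (RMA), so that a difference of 1 is a 2-fold change. Values ran from 2.89 to 13.58, and array medians from 6.24 to 6.41. The genes of the set had means between 8.05 and 11.96. The number of arrays limits the precision, and the median standard deviation of a nucleolar gene within a line was 0.03 to 0.05. The erythroid genes Gata1, Klf1, Tal1, Epor, Tfrc and Kit read 9.51 to 12.44 in every line. Kit, a growth factor receptor of erythroid progenitors, averaged 10.96, 10.35, 10.06 and 11.54 in R216Q, R216W, D218G and D218Y, against 9.51 in WT. Klf1, Tal1, Epor and Tfrc had lower means in D218Y than in WT, without a test here. Tal1 averaged 9.53 in D218Y against 10.35 in WT, Epor 10.5 against 11.05, Tfrc 11.9 against 12.44 and Klf1 11.3 against 11.58. The part of these genes in the nucleolar results was not tested. Of the markers of T cells, B cells, macrophages, neutrophils, mast cells, megakaryocytes and fibroblasts measured, the line means ran from 4.03 (Fcer1a, mast cells) to 7.87 (Cd68, macrophages). Gata1 itself was 12.15, 12.25, 12.35 and 12.07 in R216Q, R216W, D218G and D218Y, against 12.36 in WT. It was lower than in WT in R216Q (limma adjusted p = 1.08e-04), R216W (0.022) and D218Y (1.12e-06), and did not pass in D218G (0.961). G1E cells lack GATA1 and each line expresses an introduced form, so this reading may come from the introduced gene. The part of these Gata1 differences in the nucleolar results was not tested. Replicate 3 of D218G had an array median of 6.25 and stood apart from its line. Without it 36 of the 38 genes were still higher in D218G than in WT, in place of 38. The genes that lost the call, Ncl and Npm1, also lost it without D218G replicate 1, WT replicate 1 or WT replicate 3. In bulk RNA, a change in the share of cells of one stage and a change in the RNA per cell cannot be told apart, and array values are relative to the total RNA of a sample.

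The nucleolar genes were highest in D218Y, intermediate in D218G and R216Q, and lowest in R216W and WT. All 38 had their highest line mean in D218Y, and the lowest was in WT for 27 and in R216W for 11. The F test of limma, Benjamini-Hochberg adjusted over all genes, passed for all 38 (adjusted p under 0.05) and for 41.9% of all genes tested. The median difference of the 38 genes from the WT mean was 0.34, 0.37 and 0.35 in the 3 R216Q arrays, 0.04, 0.10 and 0.09 in the R216W arrays, 0.34, 0.35 and 0.42 in the D218G arrays, and 0.84, 0.83 and 0.86 in the D218Y arrays. The WT arrays themselves were at -0.02, 0.00 and 0.01. For the 6671 genes whose mean level lay in the same range as these 38, the medians stayed between -0.02 and 0.07 in all 15 arrays. Only in the third D218G array did that median reach 0.07, and the nucleolar genes were also highest there within the line.

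**Figure D2:**
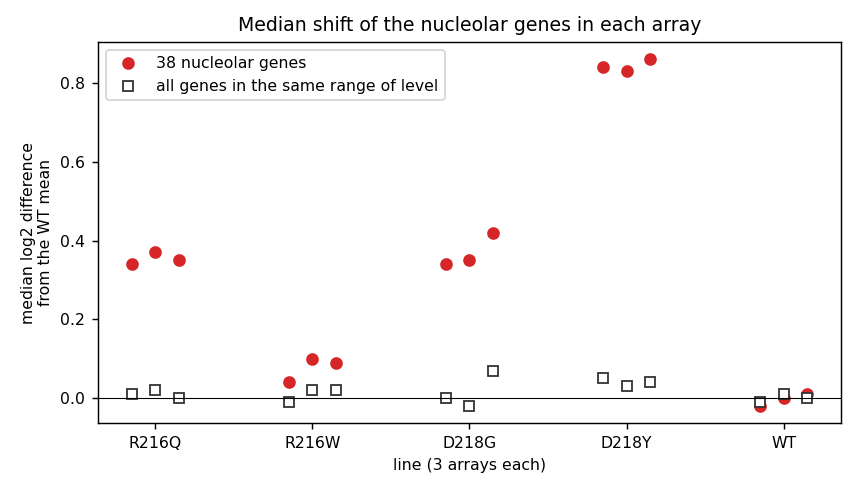
Median log2 difference from the WT mean in each of the 15 arrays (vertical axis) by line (horizontal axis), for the 38 nucleolar genes (filled circles) and for all 6671 genes in the same range of mean level (open squares). The D218Y arrays lie between 0.83 and 0.86 and the R216W arrays between 0.04 and 0.10, while the open squares stay at or below 0.07.

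In D218Y against WT all 38 genes rose, with a median log2 difference of 0.86 and a range of 0.37 to 2.01. The background was 20.3% of all genes tested called higher, or 41.6% of the genes in the same range of level, and the median over all genes was -0.07. In R216Q 37 of 38 rose (median 0.34, range 0.08 to 0.94), where 11.8% of all genes tested were higher. Nop56 was the gene that did not pass in R216Q. In D218G all 38 rose (median 0.37, range 0.17 to 0.83), against 10.3% of all genes. In R216W 11 rose, 1 fell and 26 did not pass (median 0.08, range -0.30 to 0.38), where 9.36% of all genes tested were called higher and 7.23% lower. In the same range of level 26.7% of genes were higher in R216Q, 20.9% in R216W and 22.8% in D218G. In each of R216Q, D218G and D218Y, the lowest array of every one of the 38 genes lay above the highest WT array, where 16.5%, 14.2% and 22.6% of all genes did so. In R216W this held for 17 of 38 genes, against 15.2%. In all, 37 of the 38 were called higher in each of R216Q, D218G and D218Y (6.65% of all genes), and 11 in all 4 mutants (2.75%). The 4 comparisons share the WT arrays.

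**Figure D3:**
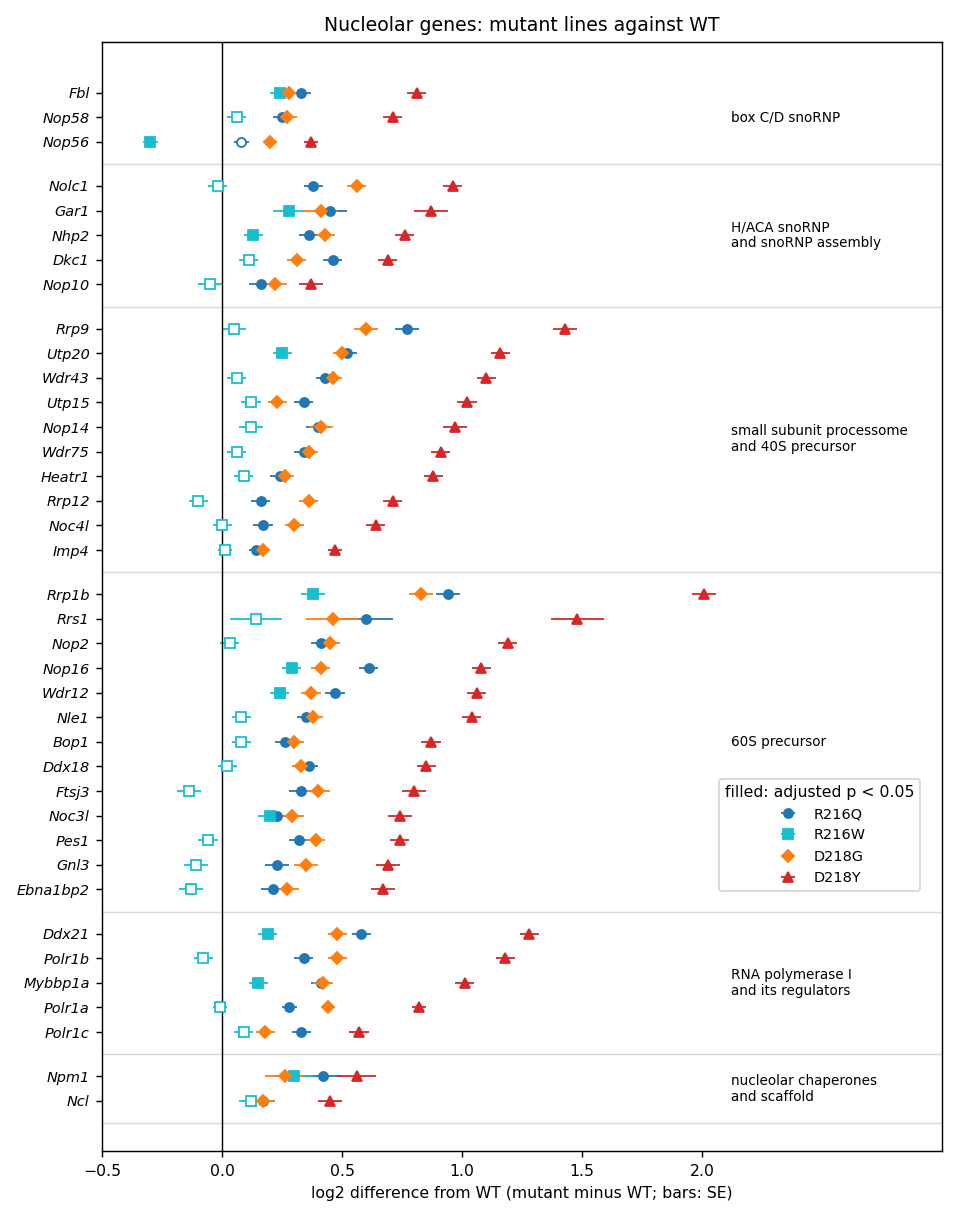
Log2 difference from WT (horizontal axis, mutant minus WT, bars are standard errors) of the 38 nucleolar genes (vertical axis), grouped by role. Circles are R216Q, squares R216W, diamonds D218G and triangles D218Y, filled where the adjusted p was under 0.05; the D218Y triangle lies farthest to the right for every gene, from 0.37 to 2.01.

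Among the box C/D snoRNP genes, Fbl had the largest and Nop56 the smallest change in D218Y. Fbl, the methyltransferase of these particles, read 10.58, 10.58 and 10.54 in R216Q, 10.45, 10.49 and 10.49 in R216W, 10.54, 10.54 and 10.49 in D218G, and 11.07, 11.09 and 11.00 in D218Y, against 10.26, 10.24 and 10.22 in WT. Every mutant array lay above every WT array, and D218Y stood clear of the other lines. Fbl rose by 0.81 ± 0.04 in D218Y (standard error, SE; limma adjusted p = 7.62e-11), by 0.33 ± 0.04 in R216Q, 0.28 ± 0.04 in D218G and 0.24 ± 0.04 in R216W. Nop58, a core protein of the particle, rose in R216Q (0.25 ± 0.04), D218G (0.27 ± 0.04) and D218Y (0.71 ± 0.04), and was at 0.06 ± 0.04 in R216W (adjusted p = 0.45).

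Nop56, the partner of Nop58 in the same particle, was the one gene of the set with a fall against WT that passed in the main fit. It read 11.87, 11.87 and 11.89 in R216Q, 11.48, 11.50 and 11.50 in R216W, 11.98, 11.99 and 12.01 in D218G, and 12.13, 12.15 and 12.19 in D218Y, against 11.77, 11.82 and 11.78 in WT. The R216W arrays lay below all others, and no line overlapped another. Nop56 fell by 0.30 ± 0.03 on the log2 scale in R216W (adjusted p = 6.71e-06) and rose by 0.20 ± 0.03 in D218G and by 0.37 ± 0.03 in D218Y. In R216Q it was at 0.08 ± 0.03 (adjusted p = 0.0786). The difference between R216W and R216Q was -0.38 ± 0.03 (adjusted p = 5.29e-07). Among genes of other groups, Rrp12 (-0.10 ± 0.04, limma adjusted p = 0.0665), Ebna1bp2 and Ftsj3 were lower in R216W than in WT without passing. Under some other settings, given below, these falls did pass.

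All 5 genes of the H/ACA group rose in R216Q, D218G and D218Y, where 11.8%, 10.3% and 20.3% of all genes tested did. Nolc1, a shuttling phosphoprotein that helps assemble snoRNPs, had the largest D218Y rise of the group. Its values were 10.83, 10.82 and 10.82 in R216Q, 10.34, 10.46 and 10.49 in R216W, 11.02, 11.04 and 10.96 in D218G, and 11.42, 11.45 and 11.34 in D218Y, against 10.45, 10.42 and 10.47 in WT. The R216W and WT arrays overlapped, and the other 3 lines did not overlap any line. Nolc1 rose by 0.38 ± 0.04 in R216Q, 0.56 ± 0.04 in D218G and 0.96 ± 0.04 in D218Y (adjusted p = 1.75e-10), and was at -0.02 ± 0.04 in R216W.

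Nop10, the smallest protein of the H/ACA core, changed least in D218Y. It read 11.76, 11.81 and 11.74 in R216Q, 11.58, 11.52 and 11.58 in R216W, 11.80, 11.79 and 11.91 in D218G, and 11.93, 11.98 and 12.05 in D218Y, against 11.58, 11.67 and 11.58 in WT. The D218Y arrays were above all others and the R216W arrays overlapped those of WT. Nop10 rose by 0.37 ± 0.05 in D218Y (adjusted p = 6.97e-06) and by 0.16 ± 0.05 in R216Q, a call lost without R216Q replicate 2, WT replicate 1 or WT replicate 3 (adjusted p from 0.07 to 0.0805). Dkc1, the pseudouridine synthase, rose by 0.46 ± 0.04 in R216Q, 0.31 ± 0.04 in D218G and 0.69 ± 0.04 in D218Y. Its partners Gar1 and Nhp2 rose in all 4 mutants, in D218Y by 0.87 ± 0.07 and 0.76 ± 0.04 and in R216W by 0.28 ± 0.07 and 0.13 ± 0.04. The Nhp2 call in R216W was lost without WT replicate 3, R216W replicate 1 or R216W replicate 2 (adjusted p from 0.068 to 0.0887).

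**Figure D4:**
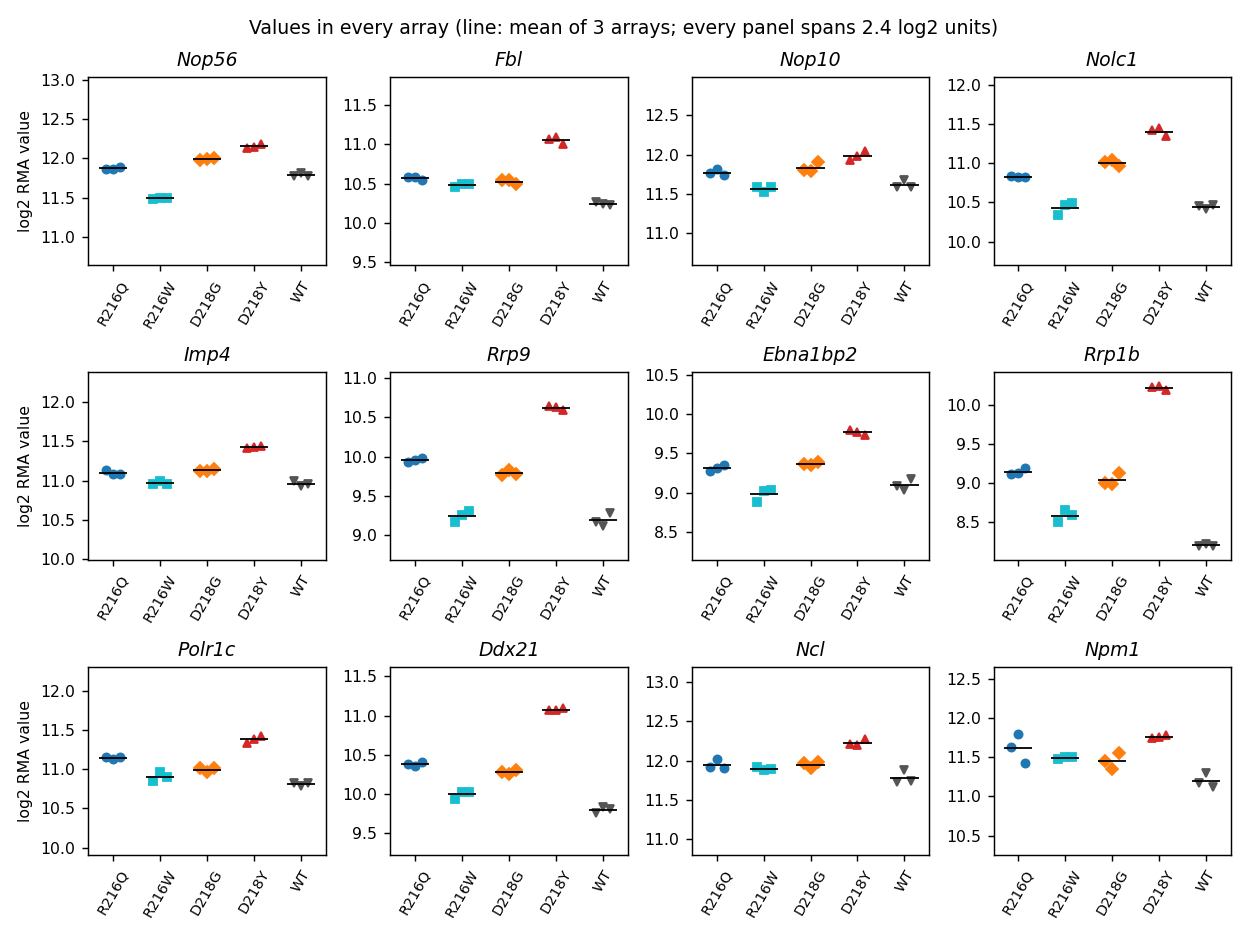
Log2 RMA values (vertical axis, each panel spanning 2.4 log2 units) of the 12 genes given array by array, for the lines R216Q, R216W, D218G, D218Y and WT (horizontal axis). Points are arrays and lines are means of 3; D218Y is highest in every panel, and the R216W arrays of Nop56 and Ebna1bp2 all lie below WT.

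All 10 genes of the small subunit processome and 40S precursor group rose in R216Q, D218G and D218Y. Over all genes tested 11.8%, 10.3% and 20.3% rose in these lines. In R216W 1 of the 10, Utp20, rose (0.25 ± 0.04). That share was near the 9.36% of all genes tested and below the 20.9% of genes in the same range of level. The group medians were 0.34, 0.06, 0.36 and 0.94 in R216Q, R216W, D218G and D218Y. Rrp9, a protein of the U3 snoRNP that guides the first cuts of the precursor, had the largest D218Y change of the group. It read 9.93, 9.96 and 9.98 in R216Q, 9.16, 9.25 and 9.30 in R216W, 9.77, 9.83 and 9.78 in D218G, and 10.64, 10.63 and 10.59 in D218Y, against 9.16, 9.12 and 9.28 in WT. R216W overlapped WT, and the other 3 lines were separate from each other and from both. Rrp9 was 2.7-fold higher in D218Y (1.43 ± 0.05, adjusted p = 3.99e-12), rose by 0.77 ± 0.05 in R216Q and 0.60 ± 0.05 in D218G, and was at 0.05 ± 0.05 in R216W.

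Imp4, which helps pair the U3 RNA with the precursor, had the smallest D218Y change of the group. Its values were 11.13, 11.08 and 11.08 in R216Q, 10.96, 10.99 and 10.96 in R216W, 11.12, 11.12 and 11.15 in D218G, and 11.42, 11.43 and 11.44 in D218Y, against 10.99, 10.93 and 10.95 in WT. D218Y was above all other arrays, R216Q and D218G overlapped each other, and R216W overlapped WT. Imp4 rose by 0.47 ± 0.03 in D218Y (adjusted p = 1.10e-08), 0.14 ± 0.03 in R216Q and 0.17 ± 0.03 in D218G. Wdr43, Wdr75, Utp15 and Heatr1, parts of the subcomplex that joins the nascent precursor first, rose in D218Y by 1.10 ± 0.04, 0.91 ± 0.04, 1.02 ± 0.04 and 0.88 ± 0.04. Utp20, a large scaffold protein, rose by 1.16 ± 0.04. Nop14 and Noc4l, which bind each other, rose by 0.97 ± 0.05 and 0.64 ± 0.04, and Rrp12, which acts in late 40S maturation and export, by 0.71 ± 0.04. In R216Q these 8 genes rose by 0.16 to 0.52 and in D218G by 0.23 to 0.50. The Noc4l call in R216Q was lost without R216Q replicate 2 (adjusted p = 0.0541).

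The 13 genes of the 60S precursor group all rose in R216Q, D218G and D218Y, with medians of 0.35, 0.38 and 0.87. Over all genes tested 11.8%, 10.3% and 20.3% rose in these lines. In R216W 4 of the 13 rose (30.8%, group median 0.08), against 9.36% of all genes tested and 20.9% in the same range of level. Rrp1b, a nucleolar homolog of yeast Rrp1, had the largest D218Y change of the whole set. It read 9.12, 9.13 and 9.19 in R216Q, 8.50, 8.66 and 8.60 in R216W, 9.00, 8.99 and 9.13 in D218G, and 10.23, 10.24 and 10.19 in D218Y, against 8.20, 8.22 and 8.20 in WT. All mutant arrays were above all WT arrays, and only R216Q and D218G overlapped. Rrp1b was 4.04-fold higher in D218Y (2.01 ± 0.05, adjusted p = 1.48e-13) and rose by 0.94 ± 0.05 in R216Q, 0.83 ± 0.05 in D218G and 0.38 ± 0.05 in R216W.

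Ebna1bp2, the homolog of yeast Ebp2, changed least among the 60S genes in D218Y. It read 9.28, 9.31 and 9.35 in R216Q, 8.88, 9.02 and 9.03 in R216W, 9.36, 9.35 and 9.39 in D218G, and 9.80, 9.77 and 9.74 in D218Y, against 9.09, 9.04 and 9.17 in WT. Each R216W array was below each WT array, but the difference of -0.13 ± 0.05 did not pass (adjusted p = 0.0893). Ebna1bp2 rose by 0.67 ± 0.05 in D218Y (adjusted p = 1.58e-08), 0.27 ± 0.05 in D218G and 0.21 ± 0.05 in R216Q. Pes1, Bop1 and Wdr12 form 1 complex needed for cutting the spacer before the 28S RNA. They rose in D218Y by 0.74 ± 0.04, 0.87 ± 0.04 and 1.06 ± 0.04. In R216W Wdr12 rose (0.24 ± 0.04), whereas Pes1 was at -0.06 ± 0.04 and Bop1 at 0.08 ± 0.04.

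Rrs1, which helps bring the 5S RNA particle into the subunit, rose in D218Y by 1.48 ± 0.11 and was the least precise gene of the set. Nop2, an RNA methyltransferase, rose by 1.19 ± 0.04 in D218Y, Nop16 by 1.08 ± 0.04 and Nle1, the homolog of yeast Rsa4, by 1.04 ± 0.04. The helicase Ddx18 (0.85 ± 0.04), the RNA methyltransferase Ftsj3 (0.80 ± 0.05), Noc3l (0.74 ± 0.05) and the GTPase nucleostemin, Gnl3 (0.69 ± 0.05), completed the group in D218Y. In R216W, Nop16 (0.29 ± 0.04) and Noc3l (0.20 ± 0.05) rose. Ftsj3 and Gnl3 were at -0.14 ± 0.05 and -0.11 ± 0.05 there and did not pass (adjusted p = 0.0652 and 0.175). The Noc3l call in R216W was lost without R216W replicate 2 (adjusted p = 0.0527), and the Rrs1 call in D218G when the 6 arrays of these lines were fitted alone (adjusted p = 0.0561).

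Polr1a, Polr1b and Polr1c, the Pol I subunit genes of the set, rose in R216Q, D218G and D218Y and did not pass in R216W. Polr1a, the catalytic subunit, rose by 0.28 ± 0.03, 0.44 ± 0.03 and 0.82 ± 0.03 in R216Q, D218G and D218Y, and Polr1b, the second-largest subunit, by 0.34 ± 0.04, 0.48 ± 0.04 and 1.18 ± 0.04. Polr1c, a subunit shared with RNA polymerase III, had the smallest D218Y change. It read 11.16, 11.13 and 11.15 in R216Q, 10.85, 10.97 and 10.90 in R216W, 11.01, 10.97 and 11.01 in D218G, and 11.34, 11.39 and 11.43 in D218Y, against 10.82, 10.79 and 10.83 in WT. No R216W array overlapped WT for this gene, yet its difference of 0.09 ± 0.04 did not pass (adjusted p = 0.13). Polr1c rose by 0.57 ± 0.04 in D218Y (adjusted p = 8.49e-09), 0.33 ± 0.04 in R216Q and 0.18 ± 0.04 in D218G.

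Ddx21, a helicase that couples transcription and processing of ribosomal RNA, rose most among the Pol I group in D218Y. Its values were 10.38, 10.36 and 10.41 in R216Q, 9.93, 10.02 and 10.03 in R216W, 10.28, 10.26 and 10.30 in D218G, and 11.07, 11.07 and 11.09 in D218Y, against 9.76, 9.83 and 9.81 in WT. The arrays of the 5 lines did not overlap. Ddx21 was 2.42-fold higher in D218Y (1.28 ± 0.04, adjusted p = 9.49e-13) and rose by 0.58 ± 0.04 in R216Q, 0.48 ± 0.04 in D218G and 0.19 ± 0.04 in R216W. Mybbp1a, a nucleolar Myb-binding protein, rose in all 4 mutants, by 1.01 ± 0.04 in D218Y and 0.15 ± 0.04 in R216W. The R216W call for Mybbp1a was lost without WT replicate 2 (adjusted p = 0.067).

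The abundant nucleolar proteins nucleolin and nucleophosmin rose in D218Y by less than the median of the set. Ncl, which binds the precursor RNA, read 11.92, 12.02 and 11.90 in R216Q, 11.92, 11.88 and 11.89 in R216W, 11.97, 11.90 and 11.98 in D218G, and 12.21, 12.20 and 12.27 in D218Y, against 11.73, 11.88 and 11.74 in WT. D218Y was above all others, while R216Q, R216W and D218G overlapped. Ncl rose by 0.45 ± 0.05 in D218Y (adjusted p = 1.48e-06), by 0.17 ± 0.05 in R216Q (adjusted p = 0.0195) and by 0.17 ± 0.05 in D218G (adjusted p = 0.0201). The R216Q call was lost without WT replicate 1, WT replicate 3 or R216Q replicate 2 (adjusted p from 0.0814 to 0.103). The D218G call was lost without WT replicate 1, WT replicate 3, D218G replicate 1 or D218G replicate 3 (adjusted p from 0.0579 to 0.0963).

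Npm1, a chaperone of assembling ribosomes, read 11.63, 11.79 and 11.42 in R216Q, 11.48, 11.50 and 11.50 in R216W, 11.45, 11.35 and 11.55 in D218G, and 11.74, 11.75 and 11.78 in D218Y, against 11.17, 11.30 and 11.12 in WT. All mutant arrays were above WT, and those of R216Q overlapped every other mutant line. Npm1 rose by 0.56 ± 0.08 in D218Y (adjusted p = 2.26e-05), 0.42 ± 0.08 in R216Q, 0.30 ± 0.08 in R216W and 0.26 ± 0.08 in D218G. In R216W only Rrp1b, at 0.38, had a larger rise among the 38. The D218G call (adjusted p = 0.0314) was lost without WT replicate 1, WT replicate 3, D218G replicate 1 or D218G replicate 3, and the R216W call without WT replicate 1 or WT replicate 3 (adjusted p from 0.0545 to 0.123). A further 3 probe sets were annotated to both Npm1 and Gm15484, so signal of a near-identical copy cannot be told apart there, and they were left out of the test.

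Of the 38 genes, 13 were at least 2-fold higher in D218Y than in WT, against 2.36% of all genes tested. They were Rrp9, Wdr43, Utp15, Utp20, Wdr12, Rrs1, Nop2, Nop16, Nle1, Rrp1b, Polr1b, Ddx21 and Mybbp1a. None of the 3 box C/D genes, the 5 H/ACA genes or Ncl and Npm1 was among them.

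The substitutions that share an arginine, R216W and R216Q, were set against each other first. Of the 38, 33 were lower in R216W than in R216Q and none was higher (median -0.28, range -0.72 to -0.03), where 8.65% of all genes tested were called lower. Rrp9 (-0.72 ± 0.05, adjusted p = 5.33e-08), Rrp1b (-0.56 ± 0.05), Ftsj3 (-0.47 ± 0.05) and Rrs1 (-0.46 ± 0.11) differed most. Fbl, Gar1, Noc3l, Ncl and Npm1 did not pass, with differences of -0.17 to -0.03 and 95% intervals reaching from -0.31 to 0.07.

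For the substitutions that share an aspartate, all 38 genes were higher in D218Y than in D218G (median 0.49, range 0.15 to 1.18), where 17.4% of all genes tested were higher. Rrp1b (1.18 ± 0.05, adjusted p = 9.27e-11), Rrs1 (1.02 ± 0.11) and Rrp9 (0.83 ± 0.05) differed most, and Nop10 (0.15 ± 0.05, adjusted p = 0.0186) and Nop56 (0.16 ± 0.03) least.

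Between residues, D218G and R216Q were close. In D218G against R216Q, 5 genes were higher, 4 were lower and 29 did not pass (median 0.02), where 6.87% of all genes tested were higher and 6.52% lower. Among the 6671 genes in the same range of level, 1136 (17%) were higher and 1048 lower, so these counts did not set the nucleolar genes apart. The 29 had differences from -0.16 to 0.13, with 95% intervals that stayed within -0.37 and 0.22. Rrp12 (0.21 ± 0.04, adjusted p = 9.84e-04), Nolc1 (0.18 ± 0.04), Polr1a (0.16 ± 0.03), Polr1b (0.14 ± 0.04) and Nop56 (0.12 ± 0.03) were higher in D218G. Nop16 (-0.20 ± 0.04, adjusted p = 0.00146), Rrp9 (-0.17 ± 0.05), Polr1c (-0.15 ± 0.04) and Dkc1 (-0.14 ± 0.04) were lower. This count fell to 5 without R216Q replicate 1 and to 2 when each array was centred on its median.

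D218G exceeded R216W at 31 of 38 genes with none lower (median 0.29), against 11.3% of all genes tested higher. D218Y exceeded R216Q at 37 genes (median 0.52), all but Npm1, against 16.5%, and exceeded R216W at all 38 (median 0.80), against 18.8%. For 31 of the 38 genes D218Y was higher than D218G and R216Q, and both of these were higher than R216W, each by the test of that difference. The same order was met by 3.25% of all genes tested. R216W and WT, the lowest neighbours in this order, differed at the 12 genes given above, and the 26 others had 95% intervals within -0.25 and 0.37.

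Other genes of the pathway were taken from a wider list by function. The list was chosen with earlier results of these data known, so it is not an independent check. Of 90 measured, 60 rose and 1 fell in R216Q (median 0.22), 29 rose and 3 fell in R216W (median 0.09), 64 rose and 2 fell in D218G (median 0.22), and 83 rose and 2 fell in D218Y (median 0.63). Over all genes tested 11.8%, 9.36%, 10.3% and 20.3% were higher in R216Q, R216W, D218G and D218Y, and 26.7%, 20.9%, 22.8% and 41.6% of the genes in the range of level of the 38. The 90 genes had 66.7%, 32.2%, 71.1% and 92.2% higher. In D218Y the largest rises were Urb1 (1.46 ± 0.03), a 60S precursor factor, Polr1e (1.40 ± 0.06), a Pol I subunit, and Rrp15 (1.40 ± 0.07), a 60S precursor factor. The genes that fell there were Pak1ip1 (-0.20 ± 0.04) and Nop53 (-0.12 ± 0.03), both linked to the 60S subunit. Tsr1, a GTPase-like factor of the 40S precursor, had the largest rise in R216Q (0.62 ± 0.06) and D218G (0.58 ± 0.06), followed by Polr1e (0.52 ± 0.06) and Utp14a (0.51 ± 0.06) in R216Q and by Urb1 (0.55 ± 0.03) and Polr1e (0.55 ± 0.06) in D218G. Gtpbp4, a 60S GTPase, fell by 0.13 ± 0.04 in D218G with Nop53 (-0.12 ± 0.03). In R216W Utp11 (0.35 ± 0.09), Gtpbp4 (0.32 ± 0.04) and Taf1b (0.30 ± 0.06) rose most.

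The Pol I machinery beyond the subunits named earlier made up 13 genes of the wider list. Of these, 10 rose and 1 fell in R216Q, 5 rose and 2 fell in R216W, 9 rose in D218G and 12 in D218Y. Over all genes tested 11.8%, 9.36%, 10.3% and 20.3% were higher in R216Q, R216W, D218G and D218Y. In R216Q 1924 of the 19933 genes were lower, and in R216W 1442 (7.23%). The falls were too few to set the machinery apart. Rrn3, the initiation factor that brings Pol I to its promoter, fell by 0.33 ± 0.04 in R216W (adjusted p = 1.58e-05), and rose by 0.20 ± 0.04 in R216Q, 0.37 ± 0.04 in D218G and 0.31 ± 0.04 in D218Y. Taf1c, a subunit of the promoter selectivity factor, fell in R216Q (-0.18 ± 0.04) and R216W (-0.21 ± 0.04) and rose in D218G (0.14 ± 0.04) and D218Y (0.20 ± 0.04). The helicase gene Ddx24 also fell in R216W (-0.25 ± 0.03). Myc, beside these genes, rose by 0.31 ± 0.05 in R216Q, 0.48 ± 0.05 in D218G and 1.13 ± 0.05 in D218Y and was at -0.12 ± 0.05 in R216W (adjusted p = 0.0884). Its part in the result was not tested.

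**Figure D5:**
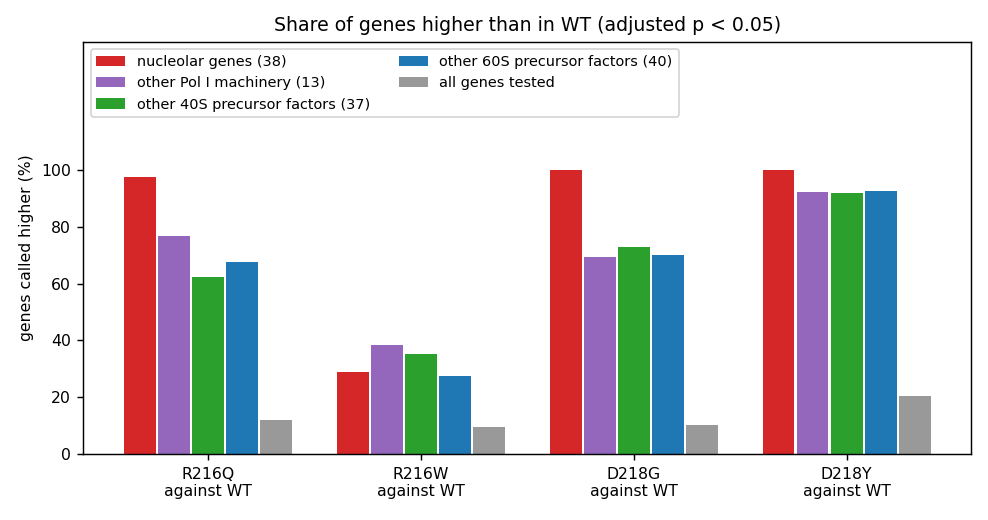
Share of genes called higher than in WT (vertical axis, percent, limma adjusted p under 0.05) in each mutant line (horizontal axis) for the 38 nucleolar genes, 3 lists of other pathway genes and all 19933 genes tested. The nucleolar bars stand at 97.4%, 28.9%, 100% and 100% in R216Q, R216W, D218G and D218Y, and the bars for all genes at 11.8%, 9.36%, 10.3% and 20.3%.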

How the data were processed

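The authors deposited a matrix of log2 expression values with a column per array, made with Partek 6.6 and RMA, per the submitters' processing notes. The RMA settings were not stated there. The values were used unchanged. Of 28350 probe sets, 21780 had 1 gene symbol in the platform annotation, 1618 several and 4952 none listed. Names were checked through gene identifiers against RefSeq (GRCm38.p6). The probe set with the highest mean stood for a gene, which left 19933 genes.

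A linear model with a mean for each line was fitted to all 15 arrays (limma 3.58.1, R 4.3.3), followed by 10 two-sided contrasts and an F test, with Benjamini-Hochberg adjustment over all genes within a contrast. Calls were at an adjusted p under 0.05, and errors are moderated standard errors. Intervals are 95% and unadjusted. The method was tested on simulated data.

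The members, role groups and the wider list were chosen with earlier results of these data known, so their counts carry no list test. Array-by-array values were given for the members with the largest and smallest D218Y difference of each role group and for any member past the threshold in opposite directions in different mutants. In the wider list up to 3 genes per mutant and direction were named, by size of change, and Rrn3 in the other lines and Myc were added. No depth applies to array values, and the number of arrays limits precision.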

Additional observations from a re-analysis of the deposited data

Results flagged for a closer look

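Differences between mutant lines were tested directly, and each count here is of the 38 nucleolar genes past the threshold. In R216W against R216Q 33 genes differed, all lower in R216W, where 8.65% of all genes tested were lower. In D218Y against D218G 38 differed, all higher in D218Y, where 17.4% of all genes tested were higher. D218G differed from R216Q at 9 genes, 5 higher and 4 lower, where 6.87% of all genes tested were higher and 6.52% lower. D218G differed from R216W at 31, all higher, where 11.3% of all genes tested were higher. D218Y differed from R216Q at 37 genes and from R216W at 38, all higher, where 16.5% and 18.8% of all genes tested were higher. Among the 6671 genes in the same range of level, 36.5%, 34.2% and 39% were higher in D218Y than in D218G, R216Q and R216W. In that range 17% and 26.1% were higher in D218G than in R216Q and R216W, and 1369 genes were lower in R216W than in R216Q.

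Nop56 was drawn out because its difference from WT had opposite signs in different mutants, at -0.30 in R216W, 0.20 in D218G and 0.37 in D218Y. The differences of D218G (0.50 ± 0.03, limma adjusted p = 1.39e-08) and D218Y (0.67 ± 0.03, limma adjusted p = 2.36e-10) from R216W were themselves past the threshold.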

How the results depend on the processing

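Against WT, the count of nucleolar genes past the threshold stayed within 1.5 times its value under every alternative run for R216Q, D218G and D218Y, and all 38 D218Y genes kept their call and direction throughout. For R216W the count of 12 became 19 (15 higher, 4 lower) when genes above the median level alone were tested. Rrp12, Ebna1bp2 and Ftsj3 were also called lower there (limma adjusted p from 0.0186 to 0.0363). They were so too after another quantile normalization (adjusted p from 0.00684 to 0.0165) and after cyclic loess normalization (0.0224 to 0.0389). Over all settings the R216W count ran from 9 to 19, and from 11 to 13 with 1 array left out. In R216W 17 of the 38 genes changed call or sign somewhere. The rises of Nhp2 and Noc3l were lost under median centring (limma adjusted p = 0.134 and 0.0592). Those of Nhp2 and Mybbp1a were lost when the arrays of the 2 lines were fitted alone (0.0802 and 0.0708). For D218G against R216Q the count of 9 became 2 with each array centred on its median, 3 at an adjusted p under 0.01 and 3 when the arrays of the 2 lines were fitted alone, and it was 5 to 9 with 1 array left out, the 5 without R216Q replicate 1. Some R216W differences from WT near 0, none past the threshold, changed sign. Centred on the array median, Nolc1 was at 0.01, Noc4l at 0.02 and Polr1a at 0.02, and Noc4l was at 0.00 after another quantile normalization. With 1 array left out, Nolc1 ranged from -0.05 to 0.03, Noc4l from -0.04 to 0.02, Imp4 from -0.00 to 0.03, Nop2 from -0.01 to 0.05 and Polr1a from -0.02 to 0.02. The causes were not tested. Under median centring 4612 of the 6925 genes called in D218Y against WT were higher, in place of 4042 of 8857. With the replicate number as a block the counts against WT were 37, 12, 38 and 38 for R216Q, R216W, D218G and D218Y. Arrays that share a number showed no deviation common to all lines. Of 30 pairs 3 correlated above 0.1 (range -0.5 to 0.41), among them R216Q and WT in replicates 2 (0.41) and 3 (0.33). Replicates 2 and 3 of D218G correlated with the same numbers at -0.49 and -0.50 in R216Q and at -0.50 and -0.48 in WT. Only 1 of 15 arrays correlated best with its own number. The source of these correlations was not tested. With 3 arrays per line, differences of about 0.1 fell near the threshold and changed calls between settings. Some larger ones did so too, such as Rrs1 (0.46) in D218G and Npm1 (0.30) in R216W. Centred on the array median, the R216Q calls of Nop10, Noc4l, Imp4, Rrp12 and Ncl were lost (limma adjusted p from 0.0773 to 0.165). The D218G calls of Ncl (adjusted p = 0.115) and Npm1 (0.0861) were lost in the same way. With the arrays of the 2 lines fitted alone, the Ncl calls in R216Q (limma adjusted p = 0.0884) and D218G (0.126) were lost. The Npm1 call in D218G (0.0689) was lost there too.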

Other observations

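Second probe sets of 3 nucleolar genes, not used in the tests, ordered the lines in the same way, with standard deviations of 0.03 to 0.14 over the 3 arrays of a line. That of Fbl averaged 10.42 in R216Q, 10.32 in R216W, 10.33 in D218G and 10.65 in D218Y, against 10.08 in WT. For Wdr12 the averages were 9.64, 9.35, 9.46 and 10.45 in R216Q, R216W, D218G and D218Y, against 8.97 in WT. Ddx18 averaged 10.37, 10.03, 10.21 and 10.81 in R216Q, R216W, D218G and D218Y, against 9.93 in WT. The 3 probe sets shared by Npm1 and Gm15484 averaged 12.24, 12.49 and 12.51 in D218Y, against 11.97, 12.22 and 12.18 in WT.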
